A study of Homo sapiens with 10 samples.

Results

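The genes described here encode the negative feedback regulators of the ERK pathway and ERK-induced transcription factors DUSP4, DUSP5, DUSP6, SPRY1, SPRY2, SPRY4, SPRED1, SPRED2, ETV4 and ETV5. They are taken by name and are 10 of the 19775 genes that the arrays measured by at least 1 probe set naming a single gene. Together they were read by 24 probe sets, the groups of short oligonucleotides that each give 1 intensity per array, and 19 of these, covering all 10 genes, were bright enough to be tested. The data are 10 Affymetrix expression arrays, 1 for each combination of 2 human non-small cell lung cancer lines and 5 treatments. HTB-182 is a squamous carcinoma line, named H520 in the title of the series, and A549 is an adenocarcinoma line. Cells of each line were held for 4 h in charcoal-stripped serum, which is depleted of steroids, and were then exposed for 3 h. The treatments were 0.1% ethanol as vehicle, 1 µM 17β-estradiol, 1 µM estradiol with 10 µM tamoxifen, 1 µM estradiol-BSA, and 1 µM estradiol-BSA with 10 µM tamoxifen. Estradiol-BSA is estradiol coupled to bovine serum albumin, a protein that does not readily cross the cell membrane, and tamoxifen is an estrogen receptor ligand used as an antagonist. The labels describe no control for the albumin carrier and none for tamoxifen by itself. The titles of the arrays with estradiol and tamoxifen mention tamoxifen only, and their source descriptions, which mention both compounds, were followed. For the A549 arrays the source names contain the number of the HTB-182 line as well, and their titles and cell line entries, which give A549, were followed. No replicate cultures are stated, so each p-value below measures the spread between single arrays.

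ERK is the last kinase of the RAS-RAF-MEK-ERK cascade, which carries growth factor signals to the nucleus. Active ERK switches on its own inhibitors. Among these, DUSP4, DUSP5 and DUSP6 are phosphatases that inactivate ERK, DUSP4 and DUSP5 in the nucleus and DUSP6 in the cytoplasm. Sprouty proteins (SPRY1, SPRY2 and SPRY4) act between the receptor and RAF, and SPRED1 and SPRED2 bring the RAS inactivator neurofibromin to the membrane. ETV4 and ETV5 are ETS transcription factors of the PEA3 group, whose RNAs are commonly read together with DUSP6 and the Sprouty genes as a gauge of pathway output. In lung cancer cells the cascade is often active through receptor or RAS mutations, and membrane-started estrogen signals are known to reach ERK within minutes.

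The promoters of DUSP6 and SPRY4 are shown because these are the members with the lowest differences between estradiol-BSA and estradiol when pooled over both lines. ETS factors bind DNA around the core GGAA, and this core (or TTCC, the same letters on the other strand) is in capitals in the 250 bases before the start of each gene. The sequences are from RefSeq, build GRCh38.p14, read 5′ to 3′ on the minus strand, at chr12:89352502-89352751 for DUSP6 and chr5:142324248-142324497 for SPRY4.
DUSP6: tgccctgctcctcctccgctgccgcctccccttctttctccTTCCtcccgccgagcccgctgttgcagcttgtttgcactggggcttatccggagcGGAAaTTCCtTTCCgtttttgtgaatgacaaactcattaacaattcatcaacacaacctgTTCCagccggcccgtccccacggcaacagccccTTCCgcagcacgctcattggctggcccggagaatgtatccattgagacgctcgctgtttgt
SPRY4: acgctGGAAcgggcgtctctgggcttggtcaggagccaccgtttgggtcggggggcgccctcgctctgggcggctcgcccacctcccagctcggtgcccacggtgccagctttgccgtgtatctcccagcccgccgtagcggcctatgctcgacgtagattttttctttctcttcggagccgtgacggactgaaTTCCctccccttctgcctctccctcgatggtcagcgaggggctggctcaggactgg
The DUSP6 window held 6 matches to the core and the SPRY4 window 2, against a median of 3 over 35116 RefSeq promoter windows, 9.14% of which held at least as many as DUSP6 and 76.5% at least as many as SPRY4. RefSeq windows were found for 6 of the members, 10 windows in all, and DUSP4, DUSP5, ETV4 and ETV5 had no entry. All 10 windows held the short core, as did 92.7% of all windows. The longer ETS motif CCGGAAG, searched on both strands and containing the core, was in 1 window, 67 bases before a start of SPRY1, and in 8.52% of all. The AP-1 motif TGANTCA (6.57% of all windows), the cAMP response element TGACGTCA (1.65%), the palindromic estrogen response element (0.0399%) and the CArG box of serum response factor (1.16%) were in 0 of the 10 windows. Matches and their lack describe these letters only.

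The median intensity of an array was between 17.5 and 21.5. The A549 vehicle array stood apart: 263 of 12975 genes, 249 of them lower, were 2-fold or more away from the average of the line's remaining arrays, a number that was 23 to 35 for each other A549 array and 0 to 3 for each HTB-182 array. Of the markers of the labelled types, the squamous lineage factor SOX2 had a mean of 4152 in HTB-182 and 135 in A549, but the squamous genes KRT5, KRT14, DSG3 and PKP1 were at 8.43 to 22.1 in HTB-182, near or under the level of 19.8 below which probe sets were not tested. The glandular keratin KRT7 had a mean of 3411 in A549 and 18.1 in HTB-182, while the lung lineage factor NKX2-1 was under 19.8 in both lines (17.0 and 17.9). Of the other adenocarcinoma and alveolar markers, MUC1 had means of 98.8 in A549 and 25.4 in HTB-182, and NAPSA 31.2 and 22.3. SFTPB (27.8 and 32.2) and SFTPC (41.6 and 48.0) were lower in A549. The summed level of 6 blood and endothelial markers ran from 82.6 to 90.5 in HTB-182 and from 133 to 221 in A549, with PTPRC and KDR under 19.8 in both lines, and that of 5 fibroblast markers from 78.9 to 96.4 and from 370 to 564, of which COL1A1 made 382 in A549. Of the blood and endothelial markers, CD14 had a mean of 10.6 in HTB-182 and 82.2 in A549. VWF, like PTPRC and KDR, was under 19.8 in both lines (16.1 and 17.9). Both sums were higher in A549. The part of these sums in the line differences of the members was not tested. In RNA from whole cultures, fewer cells expressing a gene and less RNA per cell cannot be told apart.

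Most feedback genes differed in level between the lines. A549 had high DUSP4 and DUSP5, HTB-182 had high DUSP6, ETV5, SPRY2 and SPRY4, and ETV4 and SPRED2 did not pass the test between the lines. By limma over all 23130 probe sets tested, with Benjamini-Hochberg adjustment at 0.05, 16 of the 19 member probe sets differed between A549 and HTB-182, where 63.8% of all probe sets did. Of them 5, of DUSP4, DUSP5 and SPRY1, were higher in A549 (31.5% of all were), and 11, of DUSP6, ETV5, SPRED1, SPRY2 and SPRY4, were lower (32.3% of all). The same 5 were higher on every A549 array than on any HTB-182 array (27.9% of all), and the same 11 lower (27.7%). The share that passed is above that of all probe sets, but members of 1 gene are not independent of each other. The median absolute log2 difference of the member probe sets was 1.81, against 0.41 over all probe sets. As a description of these arrays, 13 of the 19 passed and differed at least 2-fold, as did 22.2% of all. The median and this count weigh genes by their probe sets: DUSP4 and DUSP6 have 3 each and ETV5 has 4, all past 2-fold. Fold changes are on the log2(intensity + 16) scale, which understates the change of dim probe sets.

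**Figure D1:**
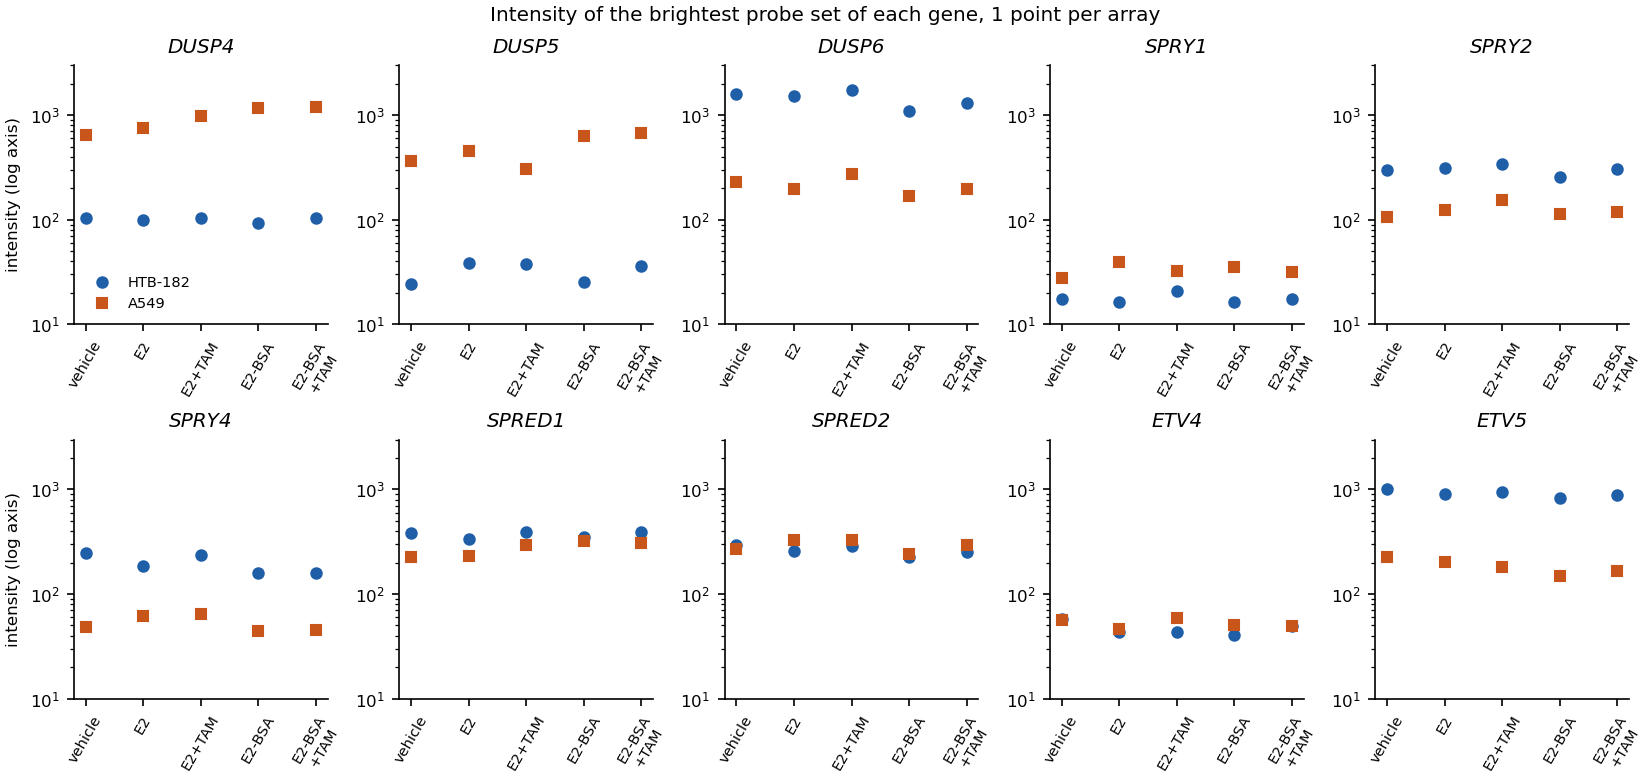
Intensity of the brightest probe set of each feedback gene on each of the 10 arrays, on a log axis, by line and treatment; each point is 1 array. DUSP4 and DUSP5 lie higher on all A549 arrays, DUSP6, ETV5, SPRY2 and SPRY4 lie higher on all HTB-182 arrays, and the points of ETV4 and SPRED2 overlap.

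Among the phosphatases, DUSP6 and the pair DUSP4 and DUSP5 were opposed. By its brightest probe set (208891_at), DUSP6 had intensities of 1597, 1541, 1757, 1101 and 1315 in HTB-182, in the order vehicle, estradiol, estradiol with tamoxifen, estradiol-BSA, and estradiol-BSA with tamoxifen. In A549, in the same order, it had 228, 195, 275, 170 and 198. The lowest HTB-182 array was thus 4.00-fold above the highest A549 array, and in both lines the array with estradiol-BSA alone was the lowest and that with estradiol and tamoxifen the highest. The A549 level was 6.44-fold lower (log2 difference -2.69 ± 0.08, SE, 5 pairs of arrays; limma adjusted p = 2.17e-10). The other probe sets of DUSP6 gave -2.78 ± 0.09 (208892_s_at) and -2.00 ± 0.10 (208893_s_at).

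DUSP4 showed the reverse order of the lines. Its brightest probe set (204014_at) read 104, 99.3, 104, 92.6 and 105 in HTB-182 and 648, 748, 977, 1172 and 1203 in A549. The HTB-182 values were nearly level, while in A549 the vehicle array was the lowest and both estradiol-BSA arrays were the highest. A549 was 8.03-fold higher (3.01 ± 0.14, limma adjusted p = 6.11e-09), with 2.67 ± 0.11 and 2.94 ± 0.11 by the other probe sets. DUSP5 (209457_at), read by a single probe set, had 24.4, 38.7, 37.6, 25.1 and 36.4 in HTB-182, not far above the level of testing, and 365, 459, 304, 637 and 682 in A549. It had the largest line difference of the members, at 10.1-fold (3.33 ± 0.18, limma adjusted p = 1.75e-08).

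The Sprouty genes were divided. SPRY2 (204011_at) had 299.6, 314, 342, 257 and 307 in HTB-182 and 106, 123, 155, 114 and 119 in A549, a 2.30-fold lower level in A549 (-1.20 ± 0.10, limma adjusted p = 7.28e-07). SPRY4 (221489_s_at) had 245, 187, 237.9, 158 and 159 in HTB-182 and 48.0, 61.9, 64.9, 44.1 and 45.1 in A549, 3.08-fold lower (-1.62 ± 0.12, limma adjusted p = 2.18e-07). In both genes no array of A549 reached the lowest of HTB-182. SPRY1 (212558_at) was dim, at 17.6, 16.2, 20.9, 16.5 and 17.5 in HTB-182 and 27.8, 39.8, 32.2, 35.7 and 31.5 in A549. It passed the filter on low values through A549, so its difference of 0.55 ± 0.09 (limma adjusted p = 0.000158) supports nothing about the members as a set, and its other probe set was too dim to be tested.

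The SPRED genes and ETV4 differed least. SPRED1 (226837_at) had 380, 333, 389, 353 and 389 in HTB-182 and 227, 229.7, 295, 321 and 310.1 in A549, so that the lines did not overlap but came close (-0.41 ± 0.10, limma adjusted p = 0.00488). Its second tested probe set was at -0.77 ± 0.11. SPRED2 (212458_at) had 292, 261, 287, 226 and 251 in HTB-182 and 267, 326, 326, 243 and 297 in A549, with overlapping lines, and a difference of 0.14 ± 0.10 (limma adjusted p = 0.248). ETV4 (211603_s_at) was low in both lines, with 57.7, 43.6, 43.1, 40.1 and 49.3 in HTB-182 and 57.0, 46.8, 59.4, 50.5 and 49.5 in A549. Its differences were 0.13 and 0.04 by its 2 probe sets (limma adjusted p = 0.256 and 0.701).

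ETV5, the close relative of ETV4, was unlike it. Its brightest probe set (203349_s_at) had 1015, 900.1, 946, 826 and 892 in HTB-182 and 228, 201, 182, 147 and 165 in A549, and was 4.68-fold lower in A549 (-2.23 ± 0.09, limma adjusted p = 1.83e-09). The other tested probe sets of ETV5 were at -2.33 ± 0.17 (203348_s_at), -1.81 ± 0.10 (230102_at) and -1.06 ± 0.11 (216375_s_at), all lower in A549. Ordered by the line difference of the brightest probe set, the members ran from DUSP5 and DUSP4 through SPRY1, SPRED2, ETV4, SPRED1, SPRY2 and SPRY4 to ETV5 and DUSP6. The 95% intervals of neighbours in this order overlapped for DUSP5 and DUSP4, for SPRED2 and ETV4, and for SPRY2 and SPRY4.

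**Figure D2:**
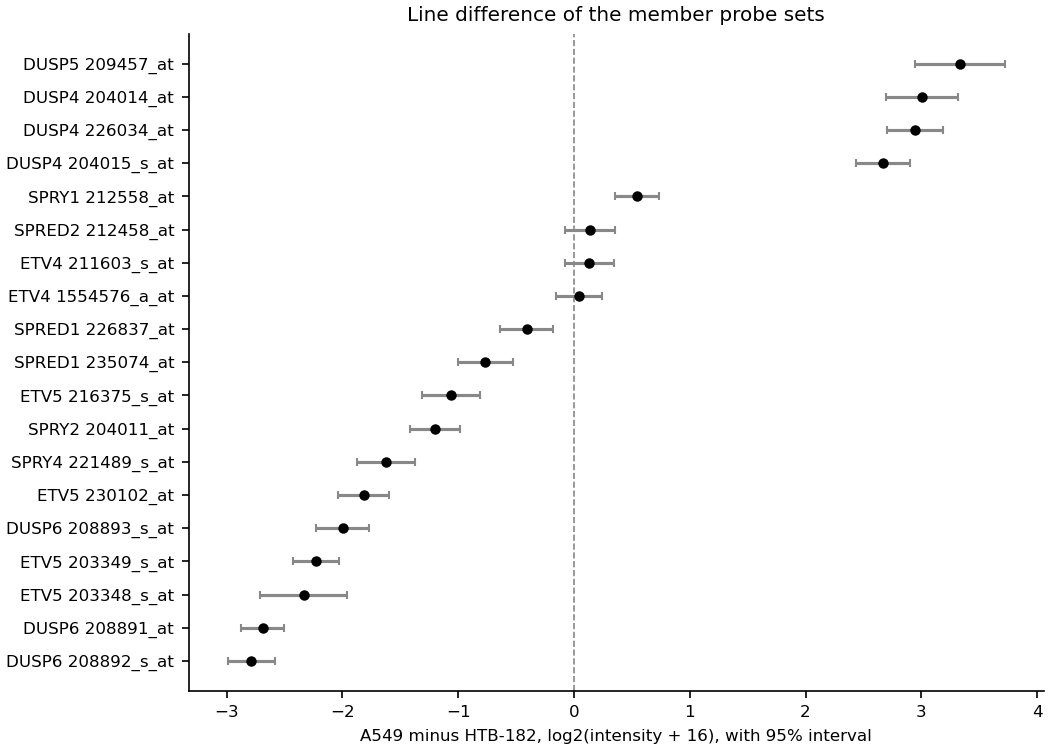
Difference A549 minus HTB-182 of each tested member probe set on the log2(intensity + 16) scale, with 95% intervals from limma over 5 pairs of arrays. DUSP4 and DUSP5 lie near 3, the intervals of ETV4 and SPRED2 cross 0, and DUSP6 and ETV5 lie at -1.06 and below.

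Free estradiol and estradiol-BSA were compared at the same dose and time, in each line with and without tamoxifen, which gives 4 pairs of arrays for 1 pair of compounds. With estradiol-BSA, DUSP6, ETV5, SPRY2, SPRY4 and SPRED2 were lower than with estradiol in all 4 pairs by their brightest probe sets, but no member passed the test. Of the 19 member probe sets 7 were lower in 4 of 4 pairs, where 6.24% of all probe sets were, and 1 was higher, where 7.95% of all were. Counting each gene once by its brightest probe set, 5 of 10 members were lower in 4 of 4 pairs (4.55% of 12975 genes) and 0 were higher (8.93%). The pairs of a line share its culture conditions and were not stated to be separate experiments. By limma, 0 of 19 members passed over both tamoxifen states, where 0.00432% of all probe sets did, and 4 of 19 had an unadjusted p under 0.05, where 3.79% did. The 1 probe set of the whole array that passed, of ID1, an inhibitor of differentiation induced by bone morphogenetic protein signals, was lower with estradiol-BSA (-1.01 ± 0.11, limma adjusted p = 0.0326) and is named after its value was seen. Without tamoxifen, over 2 pairs, 0 of all probe sets passed, 2 of 19 members and 3.61% of all had an unadjusted p under 0.05.

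Pooled over both lines, DUSP6 had the largest difference of the members between the estrogen forms. Its dimmest probe set (208893_s_at) read 487, 509, 525, 306 and 301 in HTB-182 and 115, 123, 94.6, 63.4 and 74.5 in A549, in the same order of treatments as above. In each line both arrays with estradiol-BSA were lower than all 3 others. The difference estradiol-BSA minus estradiol was -0.64 ± 0.12 (SE, 4 pairs; 95% interval -0.90 to -0.39; unadjusted p = 0.000179, limma adjusted p = 0.9997). The HTB-182 pairs were at -0.70 and -0.77, and the A549 pairs at -0.81 and -0.29. With both vehicle arrays left out the estimate is the same by construction and the limma adjusted p was 0.248. The brightest probe set (208891_at) was at -0.38 ± 0.09 (95% interval -0.59 to -0.17; unadjusted p = 0.00206, limma adjusted p = 0.9997). For the third (208892_s_at), the estradiol-BSA array of A549 without tamoxifen was not lower, and its pairs ran from -0.47 to 0.06.

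SPRY4 was at -0.39 ± 0.13 (95% interval -0.67 to -0.10; limma adjusted p = 0.9997), with pairs of -0.22 and -0.54 in HTB-182 and -0.37 and -0.41 in A549. A noncoding RNA gene, SPRY4-IT1, lies wholly inside SPRY4 on chromosome 5 (703 of its 703 bases in RefSeq), so its probe set may also read unspliced SPRY4 RNA, which was not tested. That probe set (1566968_at) had 85.6, 76.4, 84.9, 36.5 and 33.7 in HTB-182 and 37.1, 29.6, 32.5, 19.3 and 21.6 in A549. Here too both estradiol-BSA arrays of each line were lower than the other 3. The difference was -0.64 ± 0.13 (95% interval -0.92 to -0.36; limma adjusted p = 0.9997), with pairs of -0.82 and -1.02 in HTB-182 and -0.37 and -0.37 in A549, where the values with estradiol-BSA were close to the level of testing.

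The remaining members that were lower in 4 of 4 pairs had small differences whose intervals included 0. ETV5 was at -0.19 ± 0.10 and -0.20 ± 0.11 by 203349_s_at and 230102_at, SPRED2 at -0.23 ± 0.11 and SPRY2 at -0.22 ± 0.11 (all with limma adjusted p = 0.9997). The other tested ETV5 probe sets showed no pooled difference, at -0.008 ± 0.19 (203348_s_at) and 4.0e-05 ± 0.13 (216375_s_at). Both were lower in the HTB-182 pairs and higher in the A549 pairs. SPRED1, by its second probe set (235074_at), was the only member probe set higher in 4 of 4 pairs, at 0.17 ± 0.12. For ETV4 and SPRY1 the pairs differed in sign. Over all probe sets the 95% interval of this comparison spanned, at the median, 1.19-fold on each side of the estimate, and 99.6% of intervals lay within 2-fold of no difference. Failing the threshold is no evidence that the compounds had equal effects.

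Within each line the pairs gave other counts. In HTB-182, 13 of 19 member probe sets were lower with estradiol-BSA in both pairs, where 15.9% of all were, and 1 was higher, where 44.1% of all were. In A549, 8 of 19 were lower (39.2% of all) and 7 higher (16.5% of all). The members that were higher in A549 included the phosphatases abundant there. DUSP5 was 0.46 and 1.13 higher in the A549 pairs and lower by 0.41 and 0.03 in those of HTB-182. DUSP4 (204014_at) was 0.64 and 0.30 higher in A549, and at -0.09 and 0.01 in HTB-182. The difference between the lines was itself tested, by a line by form term, and 0 of 19 members passed, where 0.0216% of all probe sets did. For DUSP5 that term was 1.02 ± 0.22 (limma adjusted p = 0.338), and leaving out single arrays took it from 0.74, without either array with estradiol and tamoxifen, to 1.29, without either with estradiol alone. It passed in the latter case and without either array with estradiol-BSA and tamoxifen (limma adjusted p = 0.0152 to 0.0358), where 0.169% to 0.35% of all probe sets passed. For ETV5 by 203348_s_at the term was 0.82 ± 0.23 (limma adjusted p = 0.481), 1.18 without either array with estradiol alone (limma adjusted p = 0.0150 and 0.0181) and 0.47 without either with estradiol and tamoxifen, and the brighter ETV5 probe set was lower with estradiol-BSA in both lines.

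**Figure D3:**
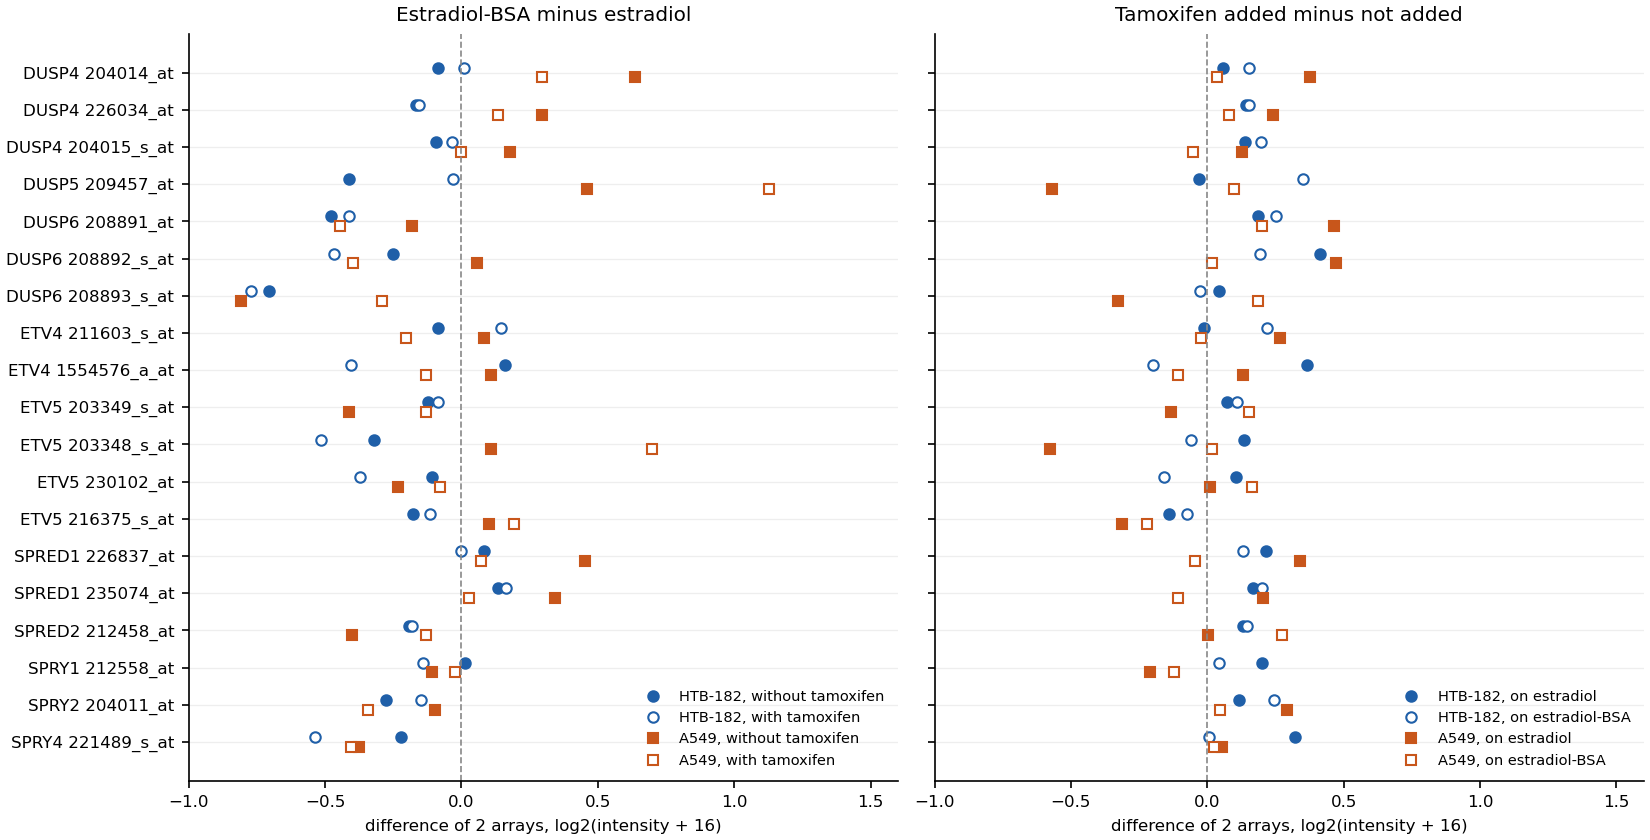
Differences between pairs of arrays for each tested member probe set on the log2(intensity + 16) scale, with estradiol-BSA minus estradiol on the left and tamoxifen added minus not added on the right; each point is 1 pair of arrays, by line and by the other compound. On the left all 4 points of DUSP6 208893_s_at and of SPRY4 lie below 0 and the A549 points of DUSP5 lie at 0.46 and 1.13; on the right all 4 points of DUSP6 208891_at lie above 0.

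Tamoxifen was added to each estrogen form in each line, which gives 4 pairs of arrays. With tamoxifen, the brightest probe sets of DUSP6, DUSP4, SPRY2, SPRY4 and SPRED2 were higher than without it in 4 of 4 pairs, and again no member passed the test. Of 19 member probe sets 7 were higher in 4 of 4 pairs, where 6.65% of all were, and 1, of ETV5 (216375_s_at), was lower, where 6.35% of all were. By brightest probe set the counts were 5 of 10 higher (7.36% of genes) and 0 lower (5.13%). By limma 0 members and 0 of all probe sets passed, and 2 of 19 members had an unadjusted p under 0.05, where 1.69% of all did. Both were of DUSP6, at 0.28 ± 0.09 (208891_at, pairs of 0.19 and 0.25 in HTB-182 and 0.46 and 0.20 in A549; limma adjusted p = 0.9999) and 0.27 ± 0.10 (208892_s_at). The dimmest DUSP6 probe set did not follow, with a difference of -0.03 and pairs of both signs. SPRY2 was at 0.18 ± 0.11, SPRED2 at 0.14 ± 0.11 and SPRY4 at 0.10 ± 0.13, and DUSP4 at 0.16 ± 0.16 by 204014_at and 0.15 ± 0.12 by 226034_at. The intervals of these 4 genes included 0. The pairs of SPRY4 were 0.32 and 0.007 in HTB-182 and 0.05 and 0.02 in A549, and the smallest pair of SPRED2 was 0.003. For these genes the shared sign thus rests in part on very small differences.

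In HTB-182 12 of 19 member probe sets were higher with tamoxifen in both pairs (33.3% of all), and in A549 8 of 19 were (17% of all). The line by tamoxifen term passed for 0 of 19 members, where 0.00865% of all probe sets passed. The tamoxifen and form comparisons use the same 8 treated arrays, so their counts are not separate evidence. In both, DUSP6, SPRY2, SPRY4 and SPRED2 were among the genes with the same sign in 4 of 4 pairs, lower with estradiol-BSA and higher with tamoxifen.

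Against vehicle, the members showed no shift shared by the lines that passed the test. By limma 0 of 19 member probe sets and 0 of all probe sets passed for any of the 4 treatments. All 4 comparisons share the vehicle arrays, and in A549 they rest on the array that stood apart. An unadjusted p under 0.05 was found for 1 member probe set with estradiol (4.83% of all), 0 with estradiol and tamoxifen (4.66%), 3 with estradiol-BSA (6.79%) and 3 with estradiol-BSA and tamoxifen (8.75%). DUSP6 by 208893_s_at was lower than vehicle with estradiol-BSA in both lines, by 1.56-fold in HTB-182 and 1.65-fold in A549 (-0.68 ± 0.16, limma adjusted p = 0.658), and again with tamoxifen added (-0.60 ± 0.16, limma adjusted p = 0.563). With estradiol alone it was at 0.06 and 0.09. The other DUSP6 probe sets differed less from vehicle. With estradiol-BSA, 208891_at was 1.44-fold lower in HTB-182 and 1.31-fold lower in A549, and 208892_s_at 1.37-fold and 1.04-fold. With tamoxifen added, 208891_at was 1.21-fold and 1.14-fold lower, and 208892_s_at 1.20-fold and 1.02-fold. The size for DUSP6 thus rests on 208893_s_at, to which the DUSP6 values in the rest of this paragraph belong. With the HTB-182 vehicle array left out, so that the single A549 vehicle array is assumed to vary like the rest, this probe set passed for estradiol-BSA (-0.71, limma adjusted p = 0.0324) and with tamoxifen added (-0.63, limma adjusted p = 0.0475), and so did DUSP4 by 204014_at (0.68 and 0.78, limma adjusted p = 0.0482 and 0.0290). These are 2 of 19 member probe sets in each comparison, where 11.8% of all probe sets passed for estradiol-BSA and 13% with tamoxifen added, shares near that of the members. With the A549 vehicle array left out instead, 0 members passed, DUSP6 was at -0.65 for estradiol-BSA, and DUSP4 was at 0.01 for estradiol-BSA and 0.10 with tamoxifen added. SPRY4 with estradiol-BSA was at -0.34 with all arrays, -0.59 without the A549 vehicle array and -0.08 without that of HTB-182.

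Within a line there is no replicate, so differences from vehicle are sizes only. In HTB-182, 2 member probe sets were at least 1.5-fold lower with estradiol-BSA (0.337% of all), the DUSP6 one above and SPRY4 (-0.59 on the log2 scale), and 0 were higher (0.216%). With estradiol-BSA and tamoxifen the DUSP6 probe set was 1.59-fold lower (1.46% of all were at least 1.5-fold lower). In A549, DUSP4 (204014_at) and DUSP5 were 1.79-fold and 1.71-fold higher with estradiol-BSA (5.75% of all were at least 1.5-fold higher), and 1.84-fold and 1.83-fold higher with tamoxifen added (6.17%). The DUSP6 probe set was the 1 member at least 1.5-fold lower there with estradiol-BSA (11.3% of all). The other probe sets of DUSP4 were at 0.35 and 0.25 with estradiol-BSA on the log2 scale, so the size for DUSP4 rests on the brightest. With estradiol and tamoxifen ETV5 by 216375_s_at was 1.58-fold lower in A549 (7.08% of all were at least 1.5-fold lower), and 0 members were that much higher (4.78%). With estradiol alone 0 members reached 1.5-fold in either line. Of all probe sets 5.38% were that much higher and 3.45% lower in A549, and 0.156% higher and 0.298% lower in HTB-182. A line by treated term, for the mean of the 4 treatments against vehicle, passed for 0 of 19 members, where 3.39% of all probe sets passed. This term rests on 1 vehicle array per line, which the model fits exactly, so its p holds no spread between vehicle arrays. In A549 that is the array that stood apart. DUSP4 by 204014_at was at 0.82 on this term when either array with estradiol alone was left out.

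**Figure D4:**
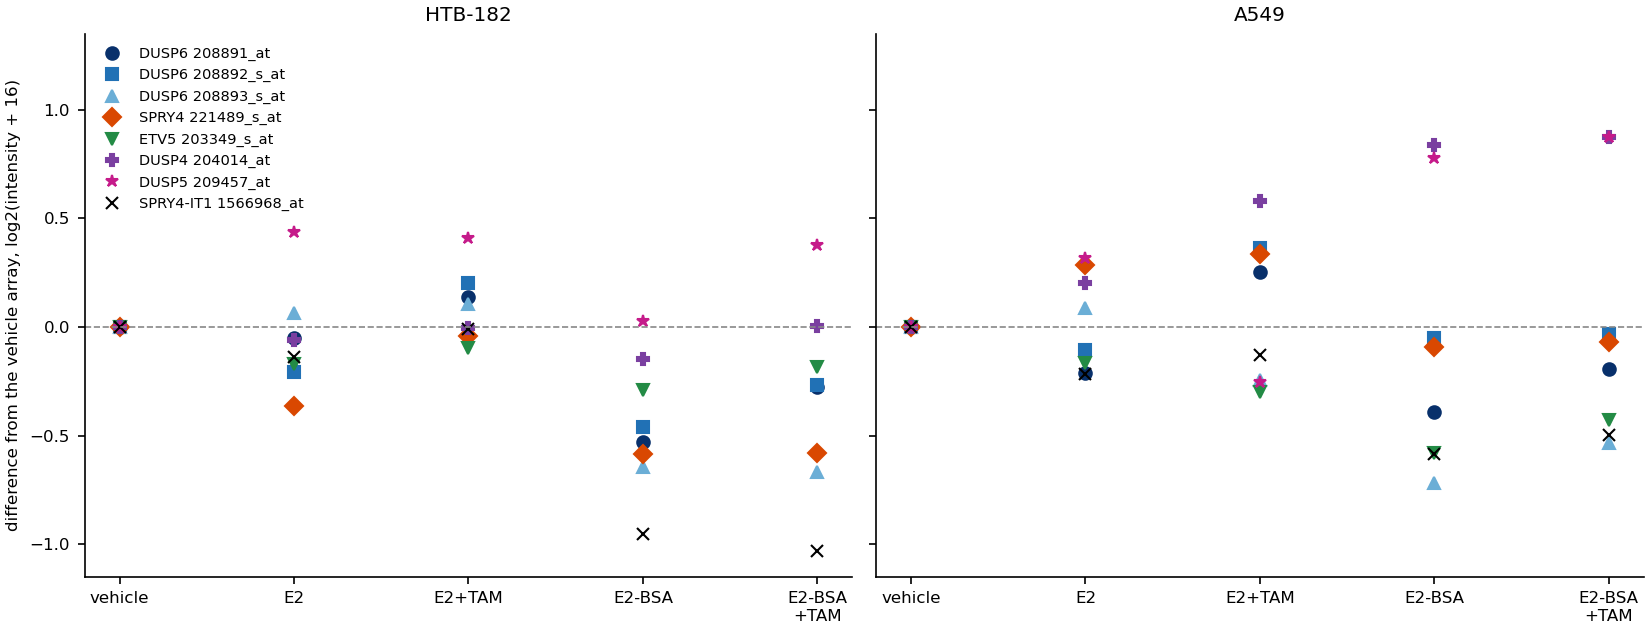
Differences of each array from the vehicle array of its line on the log2(intensity + 16) scale, for the 3 probe sets of DUSP6, the brightest of SPRY4, ETV5, DUSP4 and DUSP5, and SPRY4-IT1; each point is 1 array minus 1 vehicle array. With estradiol-BSA, DUSP6 208893_s_at lies at -0.64 in HTB-182 and -0.72 in A549, and DUSP4 204014_at lies at 0.84 in A549 and -0.15 in HTB-182.

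Other genes of the pathway were read beside the members. Over all probe sets 31.5% were higher in A549 and 32.3% lower. The counts below use the brightest probe set of each gene. Fitted on such probe sets alone, 4366 of 12975 genes were higher in A549 and 4157 lower. The counts are read against these. Of 14 tested ERK target genes outside the feedback set, 10 were higher in A549 and 2 lower, among them IER3 (3.28 ± 0.10), JUNB (2.17 ± 0.25) and PLAUR (2.07 ± 0.14). The growth factor gene EREG, LIF and FOSL1 had HTB-182 means under 19.8 (EREG 4.19, against 586 in A549) and passed the filter on low values through A549, so they had to differ. Of the 11 targets at or above 19.8 in both lines 7 were higher and 2 lower. Of 16 tested genes of the cascade itself, 9 were higher in A549 and 5 lower, and without the receptor EGFR, whose means were 15.4 in HTB-182 and 422 in A549, 8 of 15 were higher. The adaptor SHC1 differed by 2.44 ± 0.08, the receptor ERBB2 by 2.09 ± 0.29, and the kinase RPS6KA3, a target of ERK, by 1.86 ± 0.08. Of the other tested MAP kinase phosphatases 3 were higher and 1 lower of 6, with DUSP1 at 2.58 ± 0.10, DUSP7, a cytoplasmic relative of DUSP6, at -1.09 ± 0.10, DUSP10 at 0.88 ± 0.09 and DUSP16 at 0.55 ± 0.12. Of 8 ETS factors and repressors 6 were higher and 1 lower, with ETS2 at 3.09 ± 0.14. ELK3 and ETS1 had HTB-182 means of 9.45 and 11.7 and passed the filter through A549, and of the 6 at or above 19.8 in both lines 4 were higher and 1 lower. ETV1, the remaining member of the PEA3 group, had means of 88.8 and 6.58 in HTB-182 and A549, and passed the filter through HTB-182. These genes describe the arrays, and no count over them is read as evidence for the list.

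In the comparison of estrogen forms 0 genes of any of these lists passed. Of the 14 other ERK targets 11 were below 0, with a median log2 difference of -0.10, against a median of -0.01 and 55.2% below 0 over all probe sets; the members had 12 of 19 below 0 and a median of -0.06. By the brightest probe set of each gene the median was -0.004 over all genes and -0.13 over the members. Single targets went both ways. In the A549 pairs EREG was at 1.56 and 0.78 and JUNB at -1.62 and -0.97. In the HTB-182 pairs EREG was at -0.09 and 0.006 and JUNB at 0.003 and 0.11. Of the 6 other MAP kinase phosphatases 4 were below 0. Among these 6, DUSP1, an immediate early phosphatase also induced by stress and steroids, was at 0.36 ± 0.11. Its pairs were 0.20, 0.52, 0.26 and 0.46, all higher with estradiol-BSA. With tamoxifen 5 of the 14 other targets were above 0 (median -0.02), while the members had a median of 0.10.

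The genes whose levels were most like those of DUSP6 were sought over the 10 arrays, by Pearson correlation of log2 values (208891_at) centred within each line, among 12975 genes. The highest were B3GNT4 (r = 0.95), MIR4755 (0.90), C16orf86 (0.89), CMYA5 (0.88) and CCDC120 (0.86), all dim probe sets with intensities between 18.3 and 53.5. Of the members, SPRY4 (0.77, rank 43 of 12975), SPRY2 (0.75, rank 56) and SPRED2 (0.73, rank 66) followed DUSP6 most closely, then ETV5 (0.56) and ETV4 (0.54). SPRED1 (-0.04), SPRY1 (-0.05), DUSP4 (-0.13) and DUSP5 (-0.42) did not. Within HTB-182 alone DUSP4 was at 0.73 and DUSP5 at 0.42, and within A549 at -0.32 and -0.88, over 5 arrays each. These correlations are descriptions and carry no p, since the arrays share their treatments and vehicle between genes.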

How the data were processed

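RNA of 10 cultures was hybridised to 1-colour arrays. The authors deposited 1 table of intensities on a linear scale, made with MAS5 per the submitters' processing notes (version and scaling target not given in the sources used here). Of 54675 probe sets, 62 controls, 1801 that name several genes and 11721 that name none were left out of the tests. The rest were taken as log2(intensity + 16), and the 23130 whose mean reached the median of all probe set means (an intensity of 19.8) were tested. R (version 4.3.3) and limma (version 3.58.1) were used to fit differences, by lmFit and eBayes with an intensity trend, with line and treatment as terms (4 residual degrees of freedom) and Benjamini-Hochberg adjustment over all 23130. The spread is therefore the difference between the lines in their response. Terms of line by treated (3 residual degrees of freedom) and line by tamoxifen or form (2) were added in turn. All models with these added terms fit each vehicle array exactly, so their spread comes from the treated arrays. Scripts were tested on simulated data. Arrays carry no depth, and their number limits the precision.

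The members and the pathway lists were chosen with earlier results of these data known. Named genes are all members, up to 4 per list by size of difference, and the 5 genes most like DUSP6. Fitted values in the text for treatment comparisons are mainly of members with the same sign in every pair. A member's brightest probe set is that with the highest mean log2. Alternatives were other pseudocounts (1 and 64), filters, normalization, weights, the brightest probe set, and each array left out.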

Additional observations from a re-analysis of the deposited data

Results flagged for a closer look

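For 5 member probe sets both pairs of arrays moved one way in one line and the opposite way in the other, and the difference between the lines was tested by limma. For estradiol-BSA minus estradiol, A549 minus HTB-182 was 1.02 for DUSP5 (209457_at, limma adjusted p = 0.338), 0.82 for ETV5 by 203348_s_at (limma adjusted p = 0.481), 0.37 for DUSP4 by 226034_at (limma adjusted p = 0.551) and 0.29 for ETV5 by 216375_s_at (limma adjusted p = 0.612). For tamoxifen it was -0.29 for SPRY1 (212558_at, limma adjusted p = 0.99996), which in HTB-182 was near the level below which probe sets were not tested. Each of these rests on 2 pairs in each line.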

How the results depend on the processing

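No pairing by replicate was possible because the labels give no replicate numbers. Through the terms of the fit, arrays were paired by line in the treatment comparisons and by treatment in the line comparison. Leaving out each array in turn, member probe sets passing were 0 to 2 for estradiol-BSA against vehicle, 0 to 2 for estradiol-BSA with tamoxifen against vehicle, 0 to 1 for the line by treated term and 0 to 2 for the line by form term, against 0 with all arrays; the shares of all probe sets passing were up to 11.8%, 13%, 15.1% and 1.64%. Without the HTB-182 vehicle array SPRY4-IT1 also passed for estradiol-BSA with tamoxifen (limma adjusted p = 0.0492). Counted by the brightest probe set of each gene, 8 of 10 members differed between the lines, where 65.7% of genes did, against 16 of 19 probe sets. Both counts include SPRY1, which passed the filter on low values through A549. Member probe sets at least 1.5-fold from vehicle in HTB-182 in any treatment were 2 with the pseudocount of 16, 4 with 1 and 1 with 64 (2.51%, 7.54% and 0.705% of all), and in A549 4, 6 and 2 (25.9%, 40.3% and 11.1%). A part of the single differences was followed under these settings, without both vehicle arrays, and for each line alone on the 8 treated arrays. The settings without both vehicle arrays and with each line alone were added after seeing the data. Of the outcomes followed, 940 kept their direction and side of the threshold, 10 passed it anew and 2 reversed. This tally leaves out DUSP4, by its brightest probe set, for estradiol-BSA against vehicle and for the line by treated term. Both of these also passed with single arrays left out, and they are in the ranges of member probe sets passing above. The reversals were the line difference of ETV4 by 1554576_a_at with quantile normalization (-0.0197, limma adjusted p = 0.855) and DUSP5 with estradiol-BSA against vehicle with single arrays left out (-0.0093 without the A549 array with estradiol-BSA, and up to 0.81); the cause was not tested. Single arrays per group, and dim probe sets such as those of SPRY1 and of DUSP5 in HTB-182, limit what could be seen.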
